A study of Mus musculus with 2 samples.

Results

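Transcribed pseudogenes were examined in RNA-seq data of primary mouse hepatocytes from control and fibrotic liver. They were chosen as RefSeq non-coding transcripts of the lncRNA table whose mouse symbol ends in -ps, in -ps with a number, or in ps with a number. These letters matched 110 transcripts, of which 5 belonged to the protein-coding genes Rps27, Vps39, Cops9, Cops5 and Ctps2 and were set aside. The remaining 105 transcripts of 97 genes are described here, out of 37072 lncRNA transcripts in all. RefSeq annotates 99 of them as transcribed pseudogenes, 4 as lncRNAs and 2 as miscellaneous RNA, so the label held for nearly the whole set.

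A pseudogene is a copy of a gene that has lost the capacity to encode the intact protein. Processed pseudogenes arise when an mRNA is reverse-transcribed and inserted elsewhere in the genome, and abundant housekeeping mRNAs are their usual source. Duplicated pseudogenes instead remain in or near the gene cluster that gave rise to them and may keep its promoter and exons, as is common in the serpin, cytochrome P450 and alcohol dehydrogenase clusters of the mouse liver. A transcript of either kind resembles its parent mRNA, and short reads of close copies may match both.

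The libraries came from hepatocytes of male wild-type C57BL/6J mice, 5 weeks old at the start according to the methods of the study. The control mice received oil, and the model mice received a 20% CCl4 solution at 2.5 ml per kilogram, 2 times a week. CCl4 is a solvent that injures hepatocytes when it is metabolised, and repeated doses produce liver fibrosis. The labels give 8 weeks of injection and the methods give 4 weeks. Each group has 1 library, the number of mice behind it is not stated in the sources used here, and no difference below has a replicate check or a test between conditions. The groups are called oil and CCl4.

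The values are RPKM, reads scaled to the length of the transcript and to the size of the library. RPKM steps of short genes gave library totals of 57992431 reads for oil and 64655451 for CCl4. A value under 1 RPKM is listed as 0, and it was restored here by applying the authors' log2 column to the RPKM in the other group. Fold changes below are log2 of CCl4 over oil with 0.1 RPKM added, and a transcript was called higher or lower at a difference of at least 1 on that scale. Read numbers recovered from the RPKM steps are lower bounds, and the intervals built on them, at 95%, cover counting error only.

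The libraries also differed in the levels of cell type markers. Hepatocyte markers summed to 15587 RPKM in oil and 9556 RPKM in CCl4, and 3 of 6 were called lower, with Alb, the gene of serum albumin, the most abundant of them at 8656 and 6476 RPKM. Stellate cell and myofibroblast markers rose from 50.3 to 402.1 RPKM in sum, with 6 of 6 called higher. For Kupffer cells 3 of 4 markers were called higher, with sums of 636 and 1206 RPKM. The part of these shifts in the pseudogene results was not tested, and fewer cells of a type cannot be told apart from less RNA per cell. Red blood cell markers, at 3202 and 2152 RPKM in sum, and neutrophil markers, at 281 and 158 RPKM, were lower in CCl4 in sum, with 2 of 5 and 1 of 3 genes called lower. The B and T cell markers were near the cutoff in oil, at 2.21 RPKM in sum against 8.37 RPKM in CCl4, and endothelial markers, at 356 and 576 RPKM, had no call.

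Of the 105 pseudogene transcripts, 24 reached 1 RPKM in at least 1 library (22.9%), against 26.3% of all lncRNA transcripts. Among the 24, 6 were called lower in CCl4 (25%), where 4.72% of 9754 compared lncRNAs and 5.5% of mRNAs were. Another 3 were called higher (12.5%), where 15.5% of lncRNAs and 19.5% of mRNAs were. The other 15 stayed between the thresholds. Of the called ones, Cyp2c53-ps passed the cutoff of 1 RPKM only through oil and Hmga2-ps1 only through CCl4, so their own change decided that they were counted. All lncRNAs and mRNAs were filtered in the same way. The share called lower thus lay above that of lncRNAs at large, and the share called higher lay slightly below it. The same balance, with 6 lower and 3 higher, was seen among 41 compared transcribed pseudogenes of RefSeq whose symbols lack the ps ending (14.6% and 7.32%). The 368 compared RefSeq lncRNAs had 31 lower (8.42%) and 73 higher (19.8%). The median fold change of the 24 was 0.29, against 0.34 over all lncRNAs and 0.38 over all mRNAs, and 15 of the 24 lay above 0 (62.5%, against 70.5% of lncRNAs). The median mRNA itself was shifted by 0.33. When values were scaled to it, the fold changes of the pseudogenes were lower by 0.30 to 0.33 and their median was -0.025. Among the 12 with at least 5 RPKM in at least 1 library the median was -0.47. Of these, Serpina4-ps1, Adh6-ps1, Mug-ps1 and Marcksl1-ps4 passed only through oil, and Gpr137b-ps only through CCl4. Since the change itself decides which of them pass, no conclusion is drawn from this median.

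**Figure D1:**
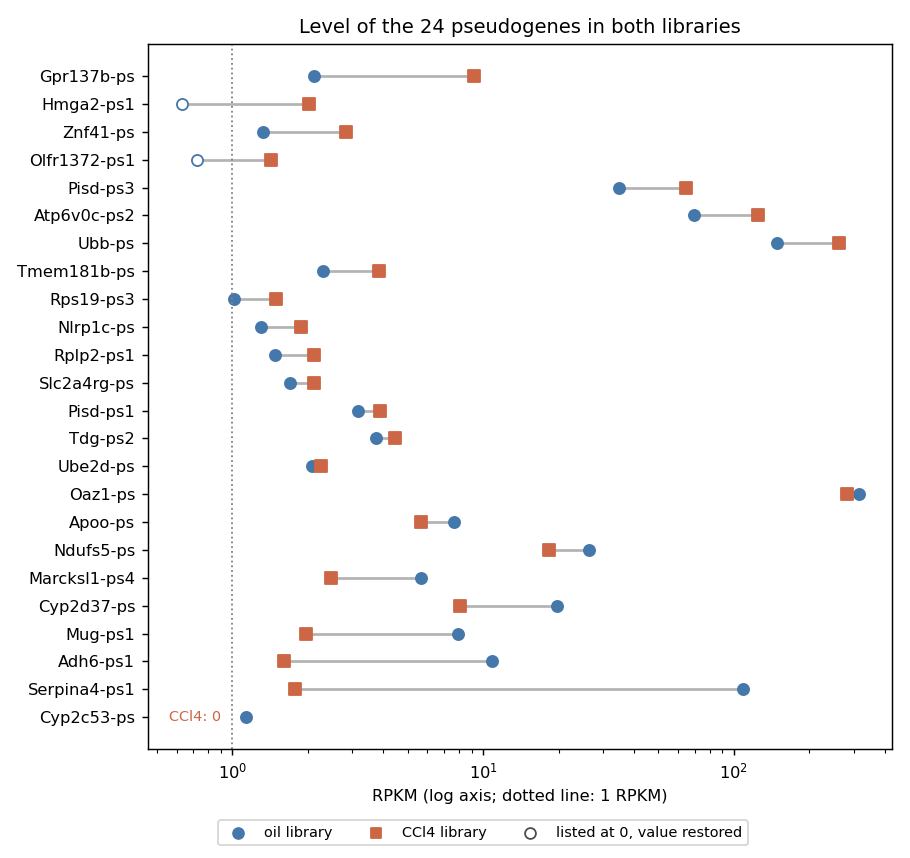
RPKM of the 24 pseudogenes that reached 1 RPKM in at least 1 library (log axis), with oil as circles and CCl4 as squares, ordered by fold change. Open symbols are values listed at 0 and restored. Serpina4-ps1 has the longest fall, from 109 to 1.77 RPKM, and Gpr137b-ps the longest rise, from 2.11 to 9.20 RPKM.

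**Figure D2:**
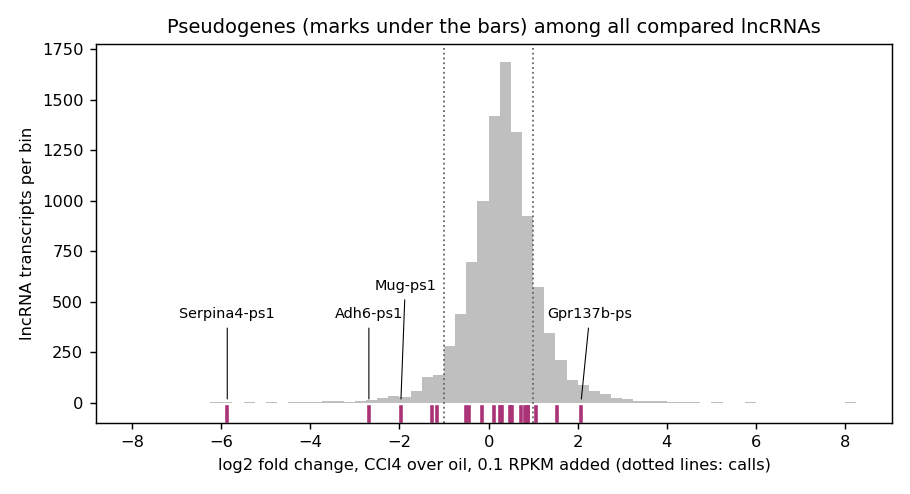
Number of lncRNA transcripts per bin of log2 fold change (grey bars, 9754 transcripts), with a mark under the bars for each pseudogene that has a fold change and dotted lines at the thresholds. Most pseudogene marks lie under the bulk of the distribution, and Serpina4-ps1, Adh6-ps1 and Mug-ps1 lie in its thin lower tail.

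The pseudogenes called lower were those of secreted and metabolic gene families of the hepatocyte, with 1 exception. Serpina4-ps1, a copy in the cluster of clade A serpins, which are secreted protease inhibitors that include alpha-1-antitrypsin, lies at chr12:104077959-104086920 (mm10, as all coordinates here). It was at 109 RPKM in oil and 1.77 RPKM in CCl4, a log2 fold change of -5.86 (interval of the ratio -6.18 to -5.71), from at least 8552 and 155 reads. Only 3 of the 9754 compared lncRNAs fell further.

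The coding clade A serpins were mostly lower as well, but none by as much with 0.1 RPKM added. The mRNA table lists 22 of them. Among the 16 that could be compared, 13 were called lower and none higher, with a median of -1.85 and a range from -4.26 (Serpina12) to 0.03 (Serpina3i). Their summed level went from 15341 to 2743 RPKM. Serpina3k, the most abundant in both libraries, was at 4971 and 773 RPKM (-2.69). Serpina1e, a gene of the alpha-1-antitrypsin group, was at 4890 and 339 RPKM (-3.85). Serpina9 was at 1.31 RPKM in oil and a restored 0.018 RPKM in CCl4 (-3.58). Its ratio without added RPKM was larger than that of the pseudogene. Its CCl4 value is far under the cutoff and no interval was computed, so the 2 cannot be ranked. The nearest coding serpin to the pseudogene is Serpina5, a protein C inhibitor, 12.4 kb away, which was listed at 0 in both libraries. Serpina4-ps1 had therefore a level in oil like that of a mid-abundance family member such as Serpina10 (141 RPKM) and a level in CCl4 near the cutoff, where Serpina10 still had 38.2 RPKM.

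Adh6-ps1, a copy among the alcohol dehydrogenases, which oxidise ethanol and retinol, lies at chr3:138374121-138388291, 15.3 kb from Adh6b. It was at 10.9 RPKM in oil and 1.60 RPKM in CCl4, a change of -2.69 (-2.95 to -2.58) from at least 1757 and 289 reads. Of 4 compared coding Adh genes, 3 were called lower. Adh1, the main ethanol-oxidising enzyme of liver, was at 901 and 466 RPKM (-0.95) and narrowly missed the threshold. Adh4 was at 42.3 and 15.8 RPKM (-1.41), the lowest fold change of the coding members, so the pseudogene fell further than each of them.

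Mug-ps1 belongs to the murinoglobulins, secreted protease-binding proteins related to alpha-2-macroglobulin, and spans chr6:122176053-122248566. Its level was 7.96 RPKM in oil and 1.96 RPKM in CCl4, a change of -1.97 (-2.17 to -1.88), from at least 1842 and 505 reads. Mug1, at 258 and 86.8 RPKM (-1.57), and Mug2, at 43.5 and 20.7 RPKM (-1.07), were both called lower. Mug2 is its nearest coding relative, at 90.1 kb.

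The cytochrome P450 pseudogenes come from the Cyp2d and Cyp2c clusters, whose enzymes hydroxylate drugs, steroids and fatty acids. Cyp2d37-ps (chr15:82688750-82690058), 67.8 kb from Cyp2d34, was at 19.7 RPKM in oil and 8.07 RPKM in CCl4, a change of -1.28 (-1.47 to -1.10). Of 5 compared coding Cyp2d genes 4 were called lower. They ranged from -2.36 in Cyp2d9 (355 and 69.1 RPKM) to -0.46 in Cyp2d22 (30.0 and 21.8 RPKM), so the pseudogene lay inside the range of its family.

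Cyp2c53-ps (chr19:39229254-39274737), 12.3 kb from Cyp2c29, was at 1.14 RPKM in oil, from at least 16 reads, and had no value in CCl4. Against a floor of 3 reads in the CCl4 library it was at least 5.95-fold lower. Of 12 compared coding Cyp2c genes 10 were called lower, with a median of -2.09. Cyp2c29 was at 313 and 93.6 RPKM (-1.74), and Cyp2c55, at 1.40 and 3.26 RPKM (1.16), was the only member called higher. The other cytochrome P450 pseudogenes of the table, Cyp4b1-ps2 and Cyp4f41-ps, were under 1 RPKM in both libraries, although Cyp4b1 itself was at 33.6 and 58.8 RPKM (0.80).

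**Figure D3:**
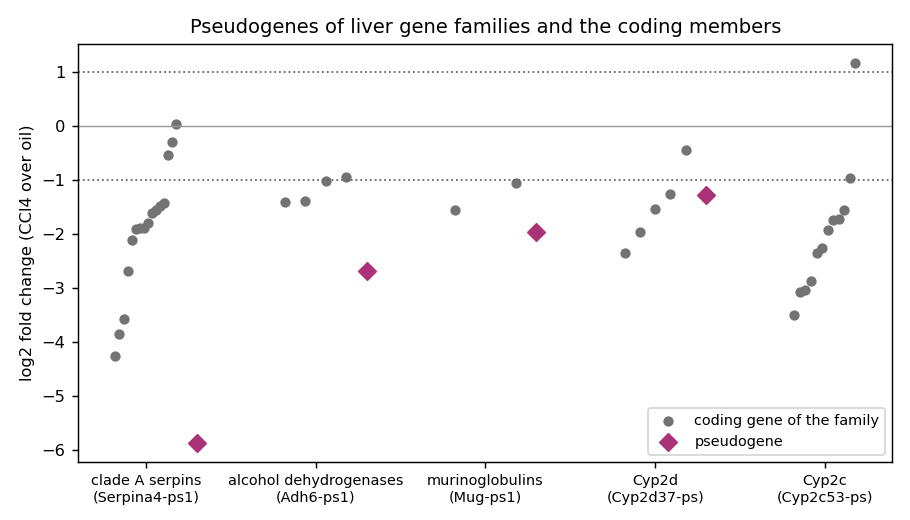
Log2 fold change (CCl4 over oil) of the compared coding genes of 5 liver families (grey points) and of the pseudogene of each family (diamonds), with dotted lines at the thresholds. With 0.1 RPKM added, the diamonds of Serpina4-ps1, Adh6-ps1 and Mug-ps1 lie below every coding member of their family. Without it, the ratio of Serpina9 was larger than that of Serpina4-ps1, but it rests on a restored 0.018 RPKM in CCl4. The diamond of Cyp2d37-ps lies among its family, and Cyp2c53-ps has none because it had no value in CCl4.

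The exception was Marcksl1-ps4, a copy of the gene of MARCKS-like protein 1, an actin-binding protein of the cell cortex. It lies at chr13:4248735-4249777, whereas Marcksl1 is on chromosome 4. The pseudogene was at 5.67 RPKM in oil and 2.48 RPKM in CCl4, a change of -1.16 (-1.47 to -0.92) from 343 and 167 reads at its full span of 1043 bases. With 1 RPKM added in place of 0.1 the change was -0.94, under the threshold. Marcksl1 had the opposite sign, with 21.8 and 41.4 RPKM (0.92), and the related Marcks was called higher, with 5.93 and 22.3 RPKM (1.90). The pseudogene stood at 26.0% of its parent in oil and 5.98% in CCl4, and the log2 of this ratio fell by 2.12 (-2.40 to -1.84). Among the 12 pseudogenes with a parent gene of the same name that could be compared, it was the only one on the other side of 0 from its parent.

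The 3 pseudogenes called higher were not from these secreted and metabolic families. Gpr137b-ps (chr13:12614065-12650395) lies 707 kb from Gpr137b, whose product is a lysosomal membrane protein that takes part in mTORC1 recruitment. It was at 2.11 RPKM in oil and 9.20 RPKM in CCl4, a change of 2.07 (1.96 to 2.29) from at least 360 and 1750 reads. Gpr137b was at 1.07 and 5.91 RPKM (2.36). The pseudogene thus had more RPKM than its parent in both libraries, 1.97 times as much in oil and 1.56 times in CCl4, and the ratio fell by 0.34 on the log2 scale (-0.62 to -0.06). The related Gpr137 was at 7.87 and 8.82 RPKM (0.16).

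Hmga2-ps1, named for a chromatin protein of embryonic and tumour cells, was listed at 0 in oil, where its restored value was 0.628 RPKM, and had 2.02 RPKM in CCl4. The change was 1.54 from 55 and 197 reads, counted over its span of 1510 bases on chromosome 1, and 0.89, under the threshold, with 1 RPKM added. Hmga2 itself was listed at 0 in both libraries, so no parent comparison could be made. Hmga1, the other member of the family, was at 7.84 and 18.9 RPKM (1.26). Znf41-ps, a zinc finger copy on chromosome 4, was at 1.32 and 2.85 RPKM, a change of 1.05 (0.85 to 1.37) that became 0.74, under the threshold, when values were scaled to the median mRNA.

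Besides Serpina4-ps1, which was number 3 of the 24 in oil, the most abundant pseudogenes were copies of housekeeping genes, and none of these 4 was called. Oaz1-ps on chromosome 17, a copy of the ornithine decarboxylase antizyme gene that restrains polyamine synthesis, was the highest, at 314 RPKM in oil and 284 RPKM in CCl4 (-0.15). Ubb-ps on chromosome 14, a copy of a polyubiquitin gene, was at 148 and 262 RPKM (0.82). Atp6v0c-ps2 on chromosome 6, a copy of the gene of the proton-carrying ring subunit of the vacuolar ATPase, was at 69.4 and 125 RPKM (0.85). Pisd-ps3 on an unplaced sequence, a copy of the gene of the mitochondrial enzyme that makes phosphatidylethanolamine from phosphatidylserine, was at 34.8 and 64.2 RPKM (0.88). These 4 and Serpina4-ps1 were the 5 highest in oil. In CCl4 the 4 copies remained the highest, and Serpina4-ps1 ranked 20 of 24. Oaz1-ps and Atp6v0c-ps2 lay near the level of their parents in both libraries. Their RPKM therefore cannot be told apart from reads that match both copies.

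Of the 12 pairs, 11 lay on the same side of 0, where 70.5% of all lncRNAs and 70.9% of all mRNAs lay above 0. Reads that match both copies would also place a pair on the same side, and their part was not tested. Pisd is the parent of both Pisd-ps1 and Pisd-ps3, so the pairs are not independent, and no conclusion is drawn from this count. The fold changes of pseudogene and parent differed by no more than 0.1 in 5 pairs, and in the other 7 the differences ran from -2.09 to 0.54. In 8 pairs the interval of the change in ratio included 0, and for Rps19-ps3 (-1.04 to 0.40), with few reads, it was wide. These intervals take the reads of copy and parent as separate. Where the same reads count for both, an interval around 0 decides nothing. The interval of Pisd-ps1 (-0.74 to 0.63) was also wide, but its 31 and 42 reads are lower bounds. Oaz1 was at 302 and 273 RPKM (-0.14), so that Oaz1-ps stood at 104% of its parent in both libraries. Atp6v0c was at 70.5 and 127 RPKM (0.85), and its copy stood at 98.5% in oil and 98.3% in CCl4. The 8 compared genes of the same membrane sector, Atp6v0c included, had a median of 0.79. They ranged from 0.23 (Atp6v0d1) to 4.58 in Atp6v0d2, the only one called, with a restored 0.551 RPKM in oil and 15.5 RPKM in CCl4.

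Ndufs5-ps, a copy of a gene for a small subunit of respiratory complex I, was at 26.4 and 18.4 RPKM (-0.52) against 51.0 and 35.6 RPKM (-0.52) of Ndufs5, 51.7% in both libraries. The reads recovered for the copy, 1505 and 1170, were the same within 1 read as those of Ndufs5, 1505 and 1171. The length that gave these reads, 984 bases, is longer than the 500 bases the copy spans in RefSeq, so its read numbers are less certain than the others. The 8 compared complex I genes of the same name root had a median of -0.52 and none was called.

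Tdg-ps2, a copy of the thymine DNA glycosylase gene on the same chromosome 10, was at 3.73 and 4.46 RPKM (0.25), against 3.52 and 4.16 RPKM (0.24) of Tdg, which is 106% and 107%. Apoo-ps, a copy of a gene for a protein of the mitochondrial cristae, was at 7.64 and 5.65 RPKM (-0.43), against 7.07 and 4.58 RPKM (-0.62) of Apoo. Pairs so close in level, those of Oaz1-ps and Atp6v0c-ps2 included, cannot be told apart from reads that match both copies. The handling of such reads is not given in the sources used here.

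The 2 compared ribosomal copies stood far below their parents. Rps19-ps3 was at 1.01 and 1.49 RPKM (0.51), from 25 and 41 reads, or 0.86% and 0.69% of Rps19 (118 and 216 RPKM, 0.88). Rplp2-ps1 was at 1.48 and 2.12 RPKM (0.49), or 0.66% and 0.62% of Rplp2 (225 and 342 RPKM, 0.60), a protein of the ribosomal stalk. These copies rest on few reads, and Rps19-ps3 has an interval of its ratio from -0.20 to 1.34. Of 79 compared cytosolic ribosomal protein genes, the parents included, 77 lay above 0 with a median of 0.59, and none was called. Rplp2 lay near this median, and Rps19 was the second highest. The other ribosomal copies, Rps15a-ps4 and Rps15a-ps6, were under 1 RPKM in both libraries, with Rps15a at 13.0 and 23.7 RPKM.

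**Figure D4:**
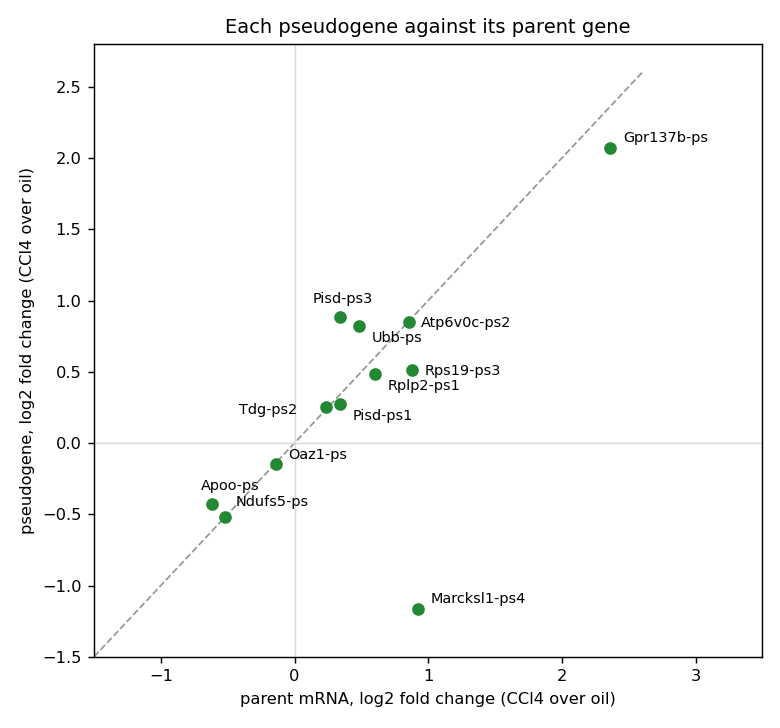
Log2 fold change (CCl4 over oil) of 12 pseudogenes against that of their parent gene, each point a pair, with a dashed line where both are equal. Marcksl1-ps4 lies alone at -1.16 against 0.92, and the other 11 points have the same sign on both axes. The part of reads that match both copies in this was not tested.

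Besides Marcksl1-ps4 and Gpr137b-ps, 2 copies changed in ratio to their parent by more than counting error. Ubb-ps went from 38.6% of Ubb in oil (385 RPKM) to 48.7% in CCl4 (537 RPKM), a log2 change of 0.34 (0.26 to 0.41). Pisd-ps3 had more RPKM than Pisd (10.6 and 13.4 RPKM, 0.34), at 3.30 times in oil and 4.81 times in CCl4, a log2 change of 0.54 (0.39 to 0.70).

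The Pisd copies were unlike each other. Pisd-ps1 on chromosome 11 was at 3.18 and 3.87 RPKM (0.27), or 30.1% and 28.9% of Pisd, and Pisd-ps2 on chromosome 17 was under 1 RPKM in both libraries. Thus 1 parent had a copy above its own level, a copy below it, and a copy under the cutoff.

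**Figure D5:**
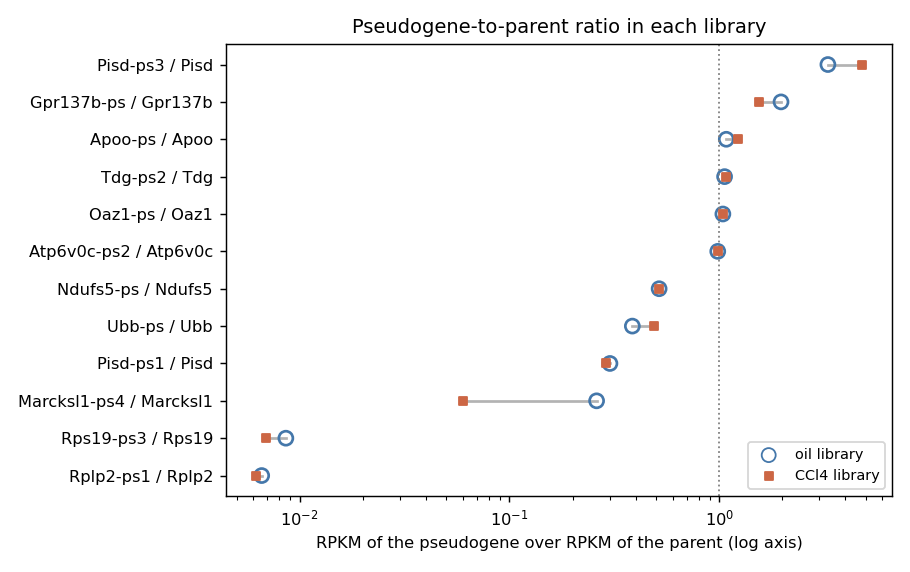
RPKM of each pseudogene divided by that of its parent (log axis), in oil (circles) and CCl4 (squares), with a dotted line at equal levels. Apoo-ps, Tdg-ps2, Oaz1-ps and Atp6v0c-ps2 lie near 1 in both libraries, the ribosomal copies near 0.01, and Marcksl1-ps4 moves from 0.26 to 0.060.

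The remaining compared pseudogenes had low levels and no call. Tmem181b-ps on chromosome 17 was at 2.30 and 3.85 RPKM (0.72), and Tmem181a, a transmembrane protein gene 131 kb away, was at 1.73 and 3.58 RPKM (1.01). Nlrp1c-ps, a copy of an inflammasome sensor gene, was at 1.30 and 1.88 RPKM (0.50). It overlaps Nlrp1b, which had a restored 0.85 RPKM in oil and 1.83 RPKM in CCl4 (1.02), and reads of the overlap cannot be told apart. Olfr1372-ps1 was the only olfactory receptor copy to pass, with a restored 0.722 RPKM in oil and 1.43 RPKM in CCl4 (0.89).

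Slc2a4rg-ps, named for a regulator of the glucose transporter GLUT4, was at 1.70 and 2.12 RPKM (0.30). Ube2d-ps, annotated as a lncRNA and named for ubiquitin-conjugating enzymes, was at 2.07 and 2.26 RPKM (0.12). These, Tdg-ps2 and Pisd-ps1 had fold changes above 0 but under the shift of the median mRNA, so scaling to it makes them negative.

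The other 81 transcripts, of 73 genes, were under 1 RPKM in both libraries. For 31 of them the deposited log2 column shows that both libraries had a value under the cutoff, and for 50 it shows none. Copies of receptors for smell and pheromones were nearly all in this group: 8 of 9 olfactory receptor transcripts and 6 of 6 vomeronasal receptor transcripts. So were the 5 Speer transcripts, a rodent family of testis, the 4 defensin transcripts, of antimicrobial peptides of the gut and other epithelia, and the 2 killer cell lectin-like receptor transcripts. All 3 copies of the phosphatase inhibitor gene Ppp1r2 were under the cutoff with no value shown, although Ppp1r2 was at 12.2 and 15.9 RPKM.

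A high parent level did not by itself bring a copy above the cutoff. Of the 81, 23 had a parent of at least 1 RPKM, and 9 of the 20 parents had at least 10 RPKM in both libraries. Ptma, the gene of prothymosin alpha, was at 255 and 370 RPKM, and Ptma-ps2 was under 1 RPKM in both. Tubb2a, a beta-tubulin gene, was at 123 and 47.3 RPKM (-1.37), and C4bp, the complement inhibitor C4b-binding protein made by hepatocytes, at 133 and 59.4 RPKM (-1.16). These were the 2 parents called lower, and 3, with restored values in oil, were called higher: Bambi (0.606 and 4.32 RPKM, 2.65), Kif4 (0.490 and 2.05 RPKM, 1.87) and Fut4 (0.489 and 1.49 RPKM, 1.43). The copies of all 5 were too low to compare. The median parent level was 10.04 RPKM in oil and 8.44 RPKM in CCl4 for these copies, against 51.0 and 41.4 RPKM for the parents of the compared pairs.

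Pseudogene transcripts with early stop codons can be removed by nonsense-mediated decay, the pathway that degrades mRNAs with such codons. All 10 listed genes of the pathway were compared and none was called, with a median of 0.32 and a highest value of 0.67 (Smg9). Upf1, the helicase at its core, was at 10.9 and 12.9 RPKM (0.23). These values lie around the shift of the median mRNA, and their part in the pseudogene levels was not tested.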

How the data were processed

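RNA-seq values of 1 oil and 1 CCl4 library of mouse hepatocytes were taken as deposited. The submitters' processing notes name CASAVA 1.4, TopHat2 and mm10, and the counting program, its use of strand and its handling of reads that match several copies are not given in the sources used here. The authors deposited RPKM per lncRNA and mRNA transcript, with values under 1 RPKM listed as 0, and columns of their own comparison (a log2 change, p-values and q-values), whose values are not reported. The deposited log2 column equalled the ratio of the RPKM values within 0.001 in all 7615 lncRNA and 14852 mRNA transcripts with both, and served only to restore values listed at 0, as RPKM, from the other library. A value stayed at 0 where no log2 value was given, or where the log2 value stood for a fixed RPKM, which was taken as a placeholder. The authors' read count of each new lncRNA (whole numbers, not normalized) was used to check the recovery of reads.

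With 1 library per group, calls rest on the fold change alone (1 or more on the log2 scale in either direction, with 0.1 RPKM added), among transcripts of at least 1 RPKM in at least 1 library. Library totals were those at which RPKM of short RefSeq genes (under 400 bases) were whole reads within 0.02, in 197 of 204 genes for oil and 212 of 219 for CCl4. Reads per transcript came from the shortest length, 50 to 30000 bases and within the gene's span where one was found, that gave whole reads in both libraries within 0.002. On 1397 new lncRNAs they equalled the deposited counts in 82.0% and never exceeded them. Intervals are exact Clopper-Pearson for a single transcript, given for the log2 ratio without added RPKM, and normal approximations on log reads for a ratio of pairs. PCR copies are not independent molecules, so they cover counting error only. Symbols, biotypes and coordinates come from RefSeq of GRCm38.p6 (mm10), which paired 3563 of 3719 RefSeq identifiers of the lncRNA table. Of several transcripts of a gene, the one highest on average was used. All 24 compared pseudogenes are named, with parents, families and listed genes by symbol. The members and lists were chosen with earlier results of these data known. Scripts were tested on simulated data and used scipy 1.17.1, numpy 2.4.6, pandas 2.3.3 and matplotlib 3.10.9 under Python 3.11.15. The alternatives tried were other pseudocounts, thresholds, level filters and scalings, families in place of parents, and Fisher's exact test on recovered reads.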

Additional observations from a re-analysis of the deposited data

How the results depend on the processing

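Fisher's exact test on recovered reads, which covers counting error between 2 libraries and not the treatment, called 9 lower and 11 higher when used without the fold threshold. Used with it, the test removed no call, which at these read numbers gives the calls no support. A stricter filter, at least 5 RPKM in at least 1 library, left 1 higher call and a median of -0.47, with 7 of 8 pairs on the same side of 0. Several called pseudogenes passed this filter only through the library where they were high, so its calls and median decide nothing. Scaling to the median mRNA gave a median of -0.025. A threshold of 2 on the log2 scale left 1 higher and 3 lower, and adding 1 RPKM left 1 higher and 5 lower, without Hmga2-ps1, Znf41-ps and Marcksl1-ps4. With families in place of absent parents, 18 of 20 pairs lay on the same side of 0. The other 39 values tried kept their direction and, for counts, stayed within 1.5 times. The alternatives without the threshold and with the protein-coding genes counted among the members were chosen after seeing the data. No paired analysis was possible because each group has 1 library, and no library could be left out.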
